A study of Arabidopsis thaliana with 88 samples.

Results

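Jasmonate synthesis and its VSP outputs were followed in 9 Arabidopsis genes, picked by AGI code, through every library of a study of whole-genome duplication. The genes were picked with earlier results of these data known. LOX2 (AT3G45140), AOS (AT5G42650), AOC1 (AT3G25760), AOC2 (AT3G25770), AOC3 (AT3G25780), AOC4 (AT1G13280) and OPR3 (AT2G06050) encode enzymes of jasmonate synthesis. VSP1 (AT5G24780) and VSP2 (AT5G24770) encode vegetative storage proteins, acid phosphatase-like proteins whose transcripts are classic jasmonate outputs. They are 9 of the 33681 genes in the deposited tables, and all 9 were among the 20347 genes with enough counts to be tested.

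The study set diploid (2x) plants beside neo-tetraploid (4x) plants, in 5 genotypes in the Col-0 background and by 3′ mRNA sequencing. The genotypes were wild-type, sos3-2 (a mutant in a calcium sensor of the salt response), esb1-1 (a mutant with an altered Casparian strip and suberin), chx25-3 (so labelled, after the cation/proton exchanger family, where the paper writes chx23-4), and rhd6-3/rsl1-1, which carries mutations in a pair of genes needed for root hairs. Plants of 5 weeks grown on soil gave 29 grouped shoot and 29 grouped root libraries, each from 1 plant, and the 2 organs came in part from the same plants. Seedlings of 2 weeks grown on plates gave 28 root libraries, each from a pool. No group carried any treatment beyond genotype and ploidy. The 86 libraries formed 30 groups, 26 of 3 and 4 of 2. Only 2 libraries stood for 4x chx25-3 in either soil organ and, on plates, for the diploids of sos3-2 and rhd6-3/rsl1-1. The wild-type lines came from earlier work and the 4x mutants were made with colchicine for the study, so that a ploidy difference is a difference between lines. The plants of a set came from 1 experiment. The p-values measure the spread between plants or pools within groups, estimated per gene over all 86 libraries, shoots and roots together.

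Jasmonates are oxylipin hormones of wounding, defence and stamen development. In the plastid, 13-lipoxygenases such as LOX2 oxygenate linolenic acid, allene oxide synthase (AOS) and an allene oxide cyclase (AOC) turn the product into 12-oxo-phytodienoic acid, and in the peroxisome OPR3 reduces it before the side chain is shortened. The conjugate jasmonoyl-isoleucine lets the receptor COI1 bind JAZ repressors, whose breakdown frees MYC2 and its relatives to drive targets that include the synthesis genes and VSP genes themselves. In Arabidopsis leaves LOX2 is the abundant chloroplast lipoxygenase, and VSP1 and VSP2 are among the transcripts that respond most to the hormone.

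In the RefSeq annotation of TAIR10.1, AOC1, AOC2 and AOC3 lie in tandem on the plus strand of chromosome 3 at 9403779 to 9405338, 9406669 to 9408071 and 9409160 to 9411090, while AOC4 stands alone on chromosome 1 at 4547388 to 4548894. VSP2 and VSP1 are neighbours on the minus strand of chromosome 5, at 8500468 to 8502224 and 8507590 to 8509201. LOX2 is at 16525245 to 16529352 on chromosome 3 (plus strand), AOS at 17097564 to 17099595 on chromosome 5 (minus strand) and OPR3 at 2359114 to 2362375 on chromosome 2 (minus strand). The build behind the deposited counts was not stated, and the counts were matched to these genes by AGI code alone.

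The 250 bases before the annotated start of 6 members are shown because these are the genes whose shoot levels differed most between ploidies, together with LOX2, the first enzyme of the set. Sequences are from TAIR10.1, 5′ to 3′ on the gene's strand, and capitals mark the G-box CACGTG and its variant CACATG, hexamers that MYC factors are known to bind, searched on both strands.
VSP1 (chr5:8509202-8509451, minus strand): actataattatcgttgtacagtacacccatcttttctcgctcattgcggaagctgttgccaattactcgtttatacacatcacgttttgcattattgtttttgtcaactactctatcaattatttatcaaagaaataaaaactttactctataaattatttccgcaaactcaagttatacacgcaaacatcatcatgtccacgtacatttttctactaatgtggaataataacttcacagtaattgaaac
VSP2 (chr5:8502225-8502474, minus strand): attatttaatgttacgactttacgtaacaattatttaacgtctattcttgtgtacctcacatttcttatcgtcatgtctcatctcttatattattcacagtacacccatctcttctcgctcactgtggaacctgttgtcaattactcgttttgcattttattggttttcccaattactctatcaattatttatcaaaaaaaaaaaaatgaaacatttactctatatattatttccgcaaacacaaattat
AOC1 (chr3:9403529-9403778, plus strand): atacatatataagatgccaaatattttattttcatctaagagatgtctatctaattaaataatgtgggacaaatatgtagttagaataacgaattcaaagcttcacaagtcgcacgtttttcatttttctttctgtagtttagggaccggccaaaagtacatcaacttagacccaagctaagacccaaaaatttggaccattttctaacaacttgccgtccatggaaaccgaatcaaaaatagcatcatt
AOS (chr5:17099596-17099845, minus strand): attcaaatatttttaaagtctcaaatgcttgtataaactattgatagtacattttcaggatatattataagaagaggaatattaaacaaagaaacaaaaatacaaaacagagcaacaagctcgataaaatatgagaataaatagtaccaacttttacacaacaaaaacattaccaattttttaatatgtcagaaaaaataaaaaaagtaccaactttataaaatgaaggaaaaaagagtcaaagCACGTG
OPR3 (chr2:2362376-2362625, minus strand): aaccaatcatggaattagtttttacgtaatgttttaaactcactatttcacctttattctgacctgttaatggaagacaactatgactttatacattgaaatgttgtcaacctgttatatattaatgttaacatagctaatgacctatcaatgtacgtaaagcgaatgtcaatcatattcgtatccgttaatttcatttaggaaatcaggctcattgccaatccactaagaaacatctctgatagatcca
LOX2 (chr3:16524995-16525244, plus strand): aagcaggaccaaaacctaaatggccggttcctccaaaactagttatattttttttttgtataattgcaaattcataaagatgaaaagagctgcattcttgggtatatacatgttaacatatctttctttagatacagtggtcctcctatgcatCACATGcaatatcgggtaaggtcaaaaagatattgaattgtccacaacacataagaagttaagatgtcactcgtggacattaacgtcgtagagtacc

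CACGTG occurred in 1 of the 9 windows, that of AOS, starting 6 bases before the annotated start, and in 6.49% of the 27438 windows of this length before protein-coding genes. CACATG occurred in 2, those of LOX2 (97 bases before the start) and AOC4 (78 bases before), and in 11.1% of all windows. None of the windows of VSP1, VSP2, AOC1, AOC2, AOC3 and OPR3 held either hexamer, and longer stretches were not searched. The longest run shared exactly by the windows of VSP1 and VSP2 was 23 bases (tactctatcaattatttatcaaa), and that shared by AOC1 and AOC2 was 19 bases (tgtagtttagggaccggcc).

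The last 300 transcript bases, where 3′ libraries take their reads, shared an exact run of 46 bases between VSP1 and VSP2 and at most 14 bases between any other pair of members. Estimated counts were not whole in 55 of 88 libraries for VSP1 and 57 for VSP2. The division of reads between these paralogs is therefore uncertain.

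Assigned reads ran from 4698913 to 8635531 per soil shoot library, from 5850010 to 10435932 per soil root library and from 3292996 to 10246421 per plate root library. Together the 9 genes took 0.0357% to 0.716% of the counts of a soil shoot library, a range wider than in either root set (0.0301% to 0.0562% in soil roots and 0.0469% to 0.104% in plate roots). The labelled organs carried their markers: summed green tissue markers stood at 40086 to 76930 TMM-scaled CPM (counts of a library brought to a common total) in shoots and 6.69 to 121 in soil roots, and summed root markers at 1783 to 6044 in soil roots and 3.44 to 47.5 in shoots. Of 6 flower markers, 2 passed 3 counts in any shoot library, the highest count was 9, and the floral identity genes AP1 and LFY were at 0.

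The enzymes divided by organ. LOX2, AOC1 and AOC2 were shoot transcripts: in TMM-scaled CPM, LOX2 ran from 212 to 4034 (median 1371) over the 29 soil shoot libraries and from 0 to 5.7 (median 0.411) over the 29 soil root libraries, so that the lowest shoot library stood 37.2-fold above the highest root library. AOC1 ran from 12.8 to 269.7 (median 68.4) in soil shoots, and its soil root libraries held 31 counts in all, at most 6 in one. AOC2 ran from 45 to 1304 (median 578) in soil shoots and from 0.0902 to 1.72 (median 0.752) in soil roots.

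AOC3 and AOC4 had the reverse order. AOC3 ran from 1.56 to 73.9 (median 8.95) in soil shoots and from 53.2 to 89.2 (median 63.6) in soil roots, with the ranges overlapping. AOC4 ran from 26.8 to 131 (median 85.6) in soil shoots and from 97.4 to 170.5 (median 126) in soil roots. AOS and OPR3, the enzymes on either side of the cyclase step, were found in both organs: AOS ran from 159 to 1593 (median 680.1) in shoots against 28.3 to 63.8 (median 45.2) in soil roots, and OPR3 from 17.4 to 327 (median 59.4) against 12.1 to 23.6 (median 16.7).

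In edgeR's quasi-likelihood test of soil shoots against soil roots, averaged over the 10 genotype and ploidy groups, all 9 members were called, meaning an adjusted p below 0.05 with a log2 fold change of 0.5 or more in size, as were 65.3% of all 20347 genes (28.6% higher and 36.7% lower). AOS was higher in shoots (log2 fold change 4.08 ± 0.14 (SE), adjusted p = 2.95e-37), as were OPR3 (log2 fold change 1.93 ± 0.11 (SE), adjusted p = 6.91e-25), VSP1 and VSP2 (1.19 and 2.22), while AOC3 (log2 fold change -2.45 ± 0.18 (SE), adjusted p = 5.77e-20) and AOC4 (-0.67) were lower. LOX2, AOC1 and AOC2 were called higher, but LOX2 and AOC1 were at or near 0 in many root libraries, and the fitted fold changes of 11.12 and 9.47 depend on how those are treated. Soil shoots and soil roots came in part from the same plants, and the test assumed no pairing. In bulk tissue, fewer cells of a type and less RNA per cell cannot be told apart. TMM shifted this comparison by 1.08 on the log2 scale against plain library totals, and the median over all genes was -0.15. On plain totals VSP1 stood at 0.13 (adjusted p = 0.683). Its median was 13.8 TMM-scaled CPM in shoots (0.328 to 496) and 14.1 in soil roots, and that of VSP2 was 116 and 47.5. In the deposited TPM (reads per transcript length), which lack this scaling, shoot medians lay below soil root medians for VSP1 (2.03 against 12), VSP2 (15.9 against 41.3) and OPR3 (7.2 against 13.2). Those of AOC3 and AOC4 also lay below, and those of LOX2, AOS, AOC1 and AOC2 above.

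**Figure D1:**
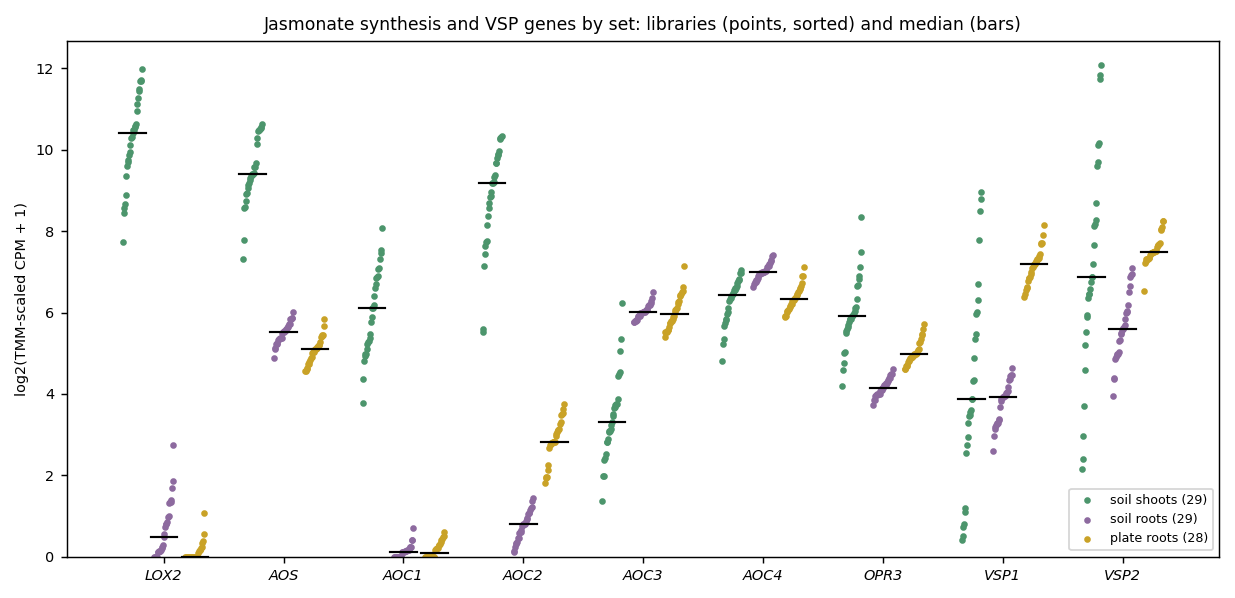
Levels of the 9 genes as log2(TMM-scaled CPM + 1) in the 3 sets, each point a library (29 soil shoot, 29 soil root, 28 plate root) sorted within its column, with bars at the medians. LOX2, AOC1 and AOC2 lie far higher in shoots than in roots, and VSP1 and VSP2 spread most widely in soil shoots.

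Per transcript length (TPM), the cyclase transcript pool changed its makeup between organs. AOC2 was the largest part of the summed AOC TPM in soil shoots, a median of 76.2% over 29 libraries (42.6% to 85.8%), with AOC1 at 12.4%, AOC4 from 5.63% to 31.1% and AOC3 at a median of 0.995%. In soil roots AOC4 made up a median of 71.8% and AOC3 27.8%, and AOC1 and AOC2 were below 1% in every library. In plate roots AOC4 stood at 60.6%, AOC3 at 34.3% and AOC2 at 5.1%. These shares rest on the authors' TPM, which divides 3′ reads by length, and on Salmon's division of reads between paralogs.

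Roots differed by growth system, with VSP1 furthest apart among the members well above 0 in both sets. VSP1 ran from 82.7 to 285 (median 145) TMM-scaled CPM in plate roots and from 5.07 to 24 (median 14.1) in soil roots, with no overlap, and VSP2 from 90.7 to 304 (median 179) and from 14.6 to 135 (median 47.5). Tested over the 10 groups, VSP1 (log2 fold change -3.44 ± 0.33 (SE), adjusted p = 1.66e-14), VSP2 (log2 fold change -1.78 ± 0.32 (SE), adjusted p = 1.98e-06), AOC2 (log2 fold change -3.18 ± 0.26 (SE), adjusted p = 5.87e-17) and OPR3 (log2 fold change -0.88 ± 0.11 (SE), adjusted p = 9.00e-11) were lower in soil, AOC4 was higher (log2 fold change 0.64 ± 0.09 (SE), adjusted p = 1.07e-08) and so was LOX2. These are 6 of 9 members called, against 47.6% of all genes (24.4% higher and 23.2% lower). AOC2 held 1 to 19 counts per soil root library, so that its fold change rests on few reads there. AOS, at 22.5 to 56.6 (median 33.3) on plates, was 0.45 higher in soil, under the fold required, and AOC3, at 41.1 to 141 (median 62) on plates, stood at -0.04 (95% interval -0.36 to 0.28). Soil and plate roots also differ in age, light regime and pooling, which cannot be told apart from the substrate.

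The LOX2 call in roots rests on few reads. Plate root libraries held at most 4 LOX2 counts, while soil root libraries held 0 to 63. The soil root library with the most LOX2, 4x sos3-2 replicate 2 at 5.7 CPM, also had the highest summed green tissue markers (121 CPM), and the next, 4x rhd6-3/rsl1-1 replicate 3 at 2.61 CPM, stood in place 3 for those markers (79.9 CPM). The part of shoot RNA in these root values was not tested.

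The comparison of 4x with 2x asks what whole-genome duplication does to these genes. In wild-type soil shoots all 9 had lower estimates in 4x, and 5 were called lower: the outputs VSP2 and VSP1, the cyclase AOC1, and the enzymes OPR3 and AOS. Over all genes 6.74% were called, 2.68% lower and 4.06% higher. The median log2 fold change of the 9 was -1.77, beside -0.05 over all genes tested. In 7 of the 9 every 4x library lay below every 2x library, which held for 7.01% of all genes. The members were chosen with earlier results of these data known, so these shares describe them and are no test of the set.

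VSP2 stood at 412, 1148 and 4314 TMM-scaled CPM in the 3 wild-type 2x shoots and at 4.33, 22.9 and 58 in the tetraploid shoots. The highest 4x plant was thus below the lowest 2x plant, and within each ploidy the plants differed widely (log2 fold change -6.09, 95% interval -8.44 to -3.74, adjusted p = 4.83e-04). VSP1 stood at 61.1, 102 and 496 in 2x and at 0.433, 1.29 and 13.8 in 4x, the lowest of these being 2 counts (log2 fold change -5.28, 95% interval -7.44 to -3.13, adjusted p = 0.00104). With each of the 6 plants left out in turn both stayed called, but the size moved with single plants. Without 2x replicate 3, VSP1 stood at -3.85 (adjusted p = 0.0264) and VSP2 at -4.76 (adjusted p = 0.00869), and without 4x replicate 3 at -8.09 and -7.21.

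AOC1 stood at 269.7, 175 and 118 in 2x and at 12.8, 37.8 and 30.8 in 4x (log2 fold change -2.79 ± 0.49 (SE), adjusted p = 3.95e-05). AOS stood at 1505, 1239.7 and 1479 in 2x and at 159, 385 and 690.0 in 4x, 3.42-fold lower (log2 fold change -1.77 ± 0.37 (SE), adjusted p = 9.94e-04). OPR3 stood at 327, 67.9 and 118 in 2x and at 31.6, 47.1 and 56.3 in 4x (log2 fold change -1.92 ± 0.34 (SE), adjusted p = 9.26e-05). One 2x plant, replicate 1, carried much of the OPR3 difference, and without it the change was -1.05 (adjusted p = 0.0251).

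LOX2 and AOC2, the abundant lipoxygenase and cyclase of shoots, showed lower values in 4x that did not pass the threshold. LOX2 stood at 1992, 2247 and 3359 in 2x and at 212, 854 and 1424 in 4x (log2 fold change -1.61 ± 0.69 (SE), adjusted p = 0.158), and AOC2 at 638, 929 and 1279.6 and at 45, 212 and 594 (log2 fold change -1.74 ± 0.61 (SE), adjusted p = 0.0697). Their groups did not overlap, but the 4x plants of each spread over several fold. AOC3 (73.9, 7.78 and 6.08 in 2x, 22.1, 12.3 and 9.97 in 4x) and AOC4 (61.7, 93.4 and 125 in 2x, 26.8, 63.6 and 92.8 in 4x) overlapped between ploidies, with estimates of -0.97 and -0.61.

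The wild-type calls depend on which libraries lend their spread. All 86 libraries shared 1 estimate of the spread per gene. With the 29 soil shoot libraries alone, 1 of the 9 was called (AOC1, adjusted p = 0.0154), and VSP2 kept its fold change of -6.03 at an adjusted p of 0.115. With only the 6 compared libraries, 0 were called. Same-numbered 2x and 4x wild-type shoots deviated together, and with the replicate number as a block 8 members were called lower, AOC3 being the exception. Root markers also differed between these plants, with sums of 9.88 to 42.7 CPM in 2x and 4.91 to 9.52 in 4x wild-type shoots, and their part in the result was not tested.

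**Figure D2:**
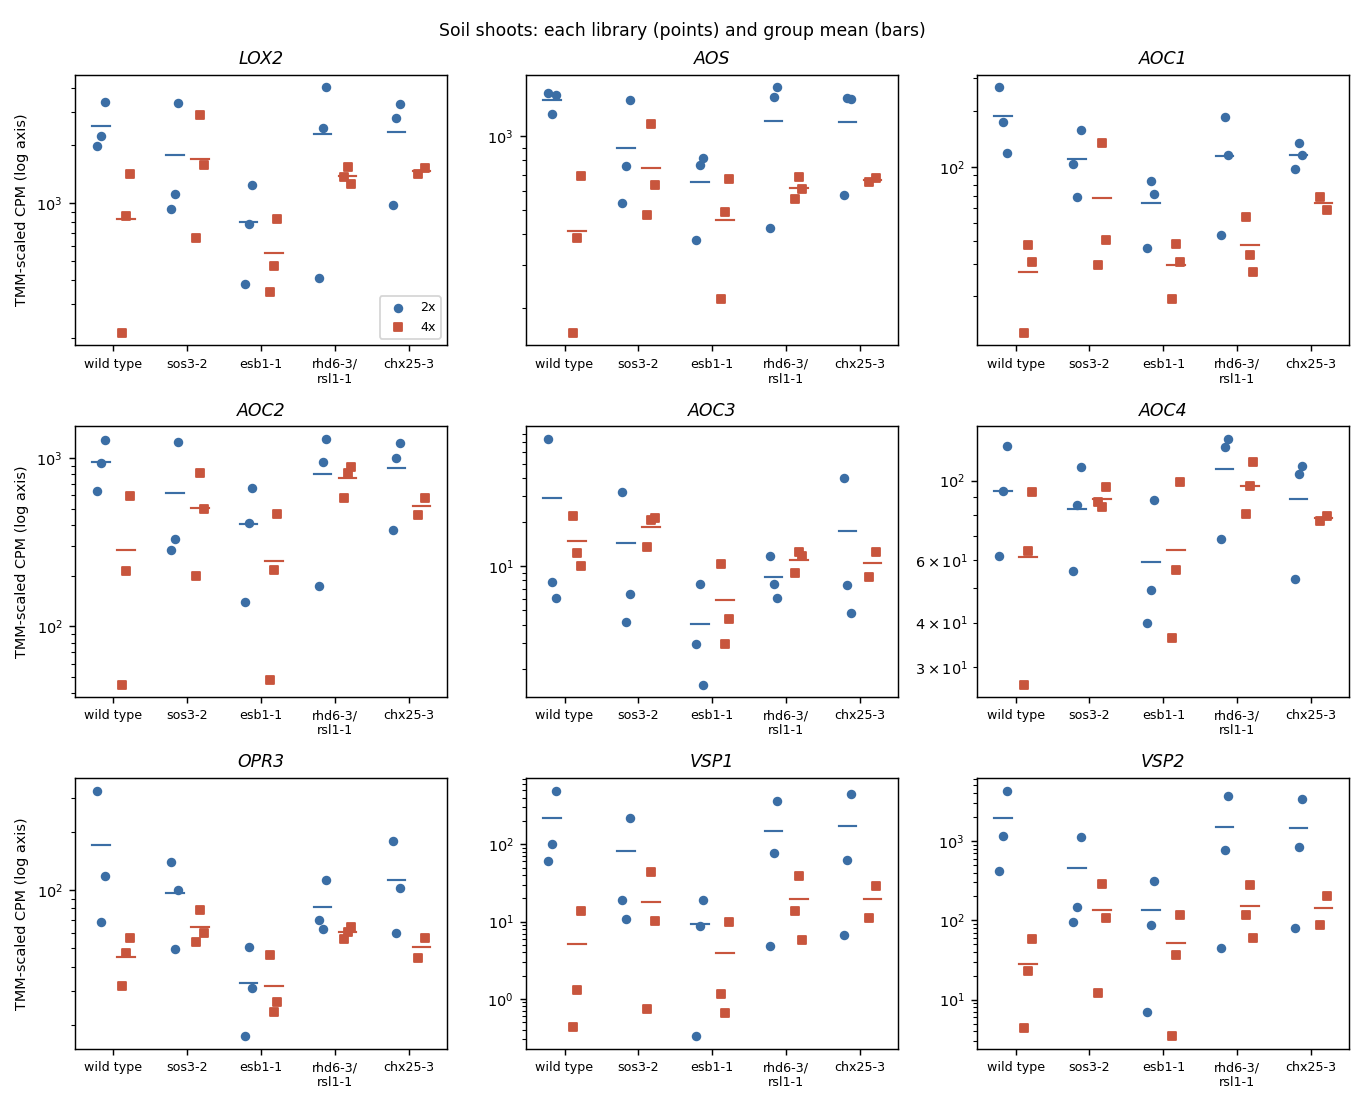
TMM-scaled CPM (log axis) of each gene in the 29 soil shoot libraries by genotype, circles for 2x and squares for 4x, with bars at the group means (n = 3, except n = 2 for 4x chx25-3). The 4x wild-type plants lie below the 2x plants for 7 genes, and VSP1 and VSP2 have the widest range.

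Of the mutants, rhd6-3/rsl1-1 showed calls in the same direction. VSP2 stood at 45.1, 769 and 3679 in 2x and 116, 278 and 60.6 in 4x (log2 fold change -3.30 ± 1.05 (SE), adjusted p = 0.0247), VSP1 at 4.88, 78.1 and 362 in 2x and 13.8, 39.5 and 5.74 in 4x (log2 fold change -2.93 ± 0.98 (SE), adjusted p = 0.0341) and AOC1 at 43.1, 185 and 116 in 2x and 53.4, 33.6 and 27 in 4x (log2 fold change -1.60 ± 0.47 (SE), adjusted p = 0.0121). The groups overlapped for each of the 3. For VSP2 and VSP1, 2x replicate 1 lay below every 4x plant, and for AOC1 it lay below 1 of them. These 3 of 9 members called stand beside 13.5% of all genes called in this mutant in either direction (6.88% higher and 6.65% lower). Leaving out 2x replicate 3 brought this to 1, leaving out 4x replicate 1 to 1 and leaving out 4x replicate 3 to 0, and with soil shoots alone it was 0.

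In chx25-3, sos3-2 and esb1-1 shoots edgeR called 0 of 9 members, beside 0.408%, 0.138% and 2.88% of all genes. At an unadjusted p under 0.05 there were 3, 1 and 1, and DESeq2 and limma-voom called 0 in each. All 9 estimates in chx25-3 were below 0: VSP2 stood at 81, 833 and 3414 in 2x and 87.1 and 200.1 in 4x, with a log2 fold change of -3.33 (95% interval -5.76 to -0.90, adjusted p = 0.26), and OPR3 at 178, 59.4 and 102 in 2x and 44.5 and 56.3 in 4x without overlap (-1.17, adjusted p = 0.162). Such a separation in chx25-3, 4x below 2x, held for 2 of 9 members and 8.76% of all genes. In sos3-2, VSP2 stood at 94.8, 146 and 1109 in 2x and 12.1, 289 and 108 in 4x, so that the ploidies overlapped (-1.73, 95% interval -3.66 to 0.21). In esb1-1, VSP2 stood at 6.88, 87.1 and 311 in 2x and 3.44, 36.1 and 117 in 4x (-1.38, 95% interval -3.33 to 0.57). Both intervals include 0 and also falls of several log2 units, so that these mutants are not shown to lack a change.

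Averaged over the 5 genotypes, 6 of the 9 were lower in 4x soil shoots and none was higher, where 14% of all genes were called, 6.33% lower and 7.71% higher. VSP2 (log2 fold change -3.17 ± 0.50 (SE), adjusted p = 1.06e-06) and VSP1 (log2 fold change -2.97 ± 0.48 (SE), adjusted p = 1.73e-06) fell most. AOC1 (log2 fold change -1.41 ± 0.21 (SE), adjusted p = 1.59e-07), AOS (log2 fold change -0.85 ± 0.17 (SE), adjusted p = 6.49e-05) and OPR3 (log2 fold change -0.83 ± 0.15 (SE), adjusted p = 2.17e-05) fell less, and AOC2 was close to the threshold (log2 fold change -0.72 ± 0.27 (SE), adjusted p = 0.0478). LOX2 missed it at -0.72 (adjusted p = 0.0832). AOC3 and AOC4, the cyclases of roots, stood at -0.09 (95% interval -0.59 to 0.42) and -0.15 (-0.41 to 0.11). All 5 genotypes had lower 4x estimates for LOX2, AOS, AOC1, AOC2, OPR3, VSP1 and VSP2, and the genotypes share no plants. The share of all genes with this order was not computed, and these members vary together over the shoot libraries (r from 0.445 to 0.968). Some of the differences were small: mean LOX2 was 1787 CPM in 2x and 1708 in 4x sos3-2, and mean OPR3 33 and 31.6 in esb1-1.

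Over the alternatives for this average, 5 to 7 members were called in 14 other fits and 5 to 7 when any 1 shoot library was left out. VSP1, VSP2, AOC1 and AOS were called lower in every one of these fits. The counts take calls in either direction. AOC3 was called higher in the fit without the diploid shoot libraries, described below, in which AOC3 and OPR3 stood out. AOC2 lost its call without each of 19 of the 29 libraries in turn and with soil shoots alone (adjusted p = 0.271).

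For LOX2, the abundant lipoxygenase, the mutants' ploidies were not separated. LOX2 stood at 407, 2456 and 4034 in 2x and 1371, 1539 and 1262 in 4x rhd6-3/rsl1-1 shoots, at 983, 2782 and 3275 in 2x and 1427 and 1519 in 4x chx25-3, at 928, 1119 and 3314 in 2x and 656, 2879 and 1590.3 in 4x sos3-2 and at 378, 780.3 and 1245 in 2x and 347, 474 and 830.0 in 4x esb1-1. The groups overlapped in all 4 mutants, and replicate 1 had the lowest 2x value in each. In esb1-1 each 4x plant was below the 2x plant of its replicate number for LOX2, AOS, AOC1, AOC2 and VSP2, and with that number as a block 0 of 9 were called (AOC1 -1.11, adjusted p = 0.0979, LOX2 -0.46, adjusted p = 0.686). The share of all genes in this order was not computed, and these members vary together over the shoot libraries (r from 0.69 to 0.94). AOS stood at 424, 1448 and 1593 in 2x and 556, 681 and 613 in 4x rhd6-3/rsl1-1 (-0.91, adjusted p = 0.0842) and at 378, 763 and 816 in 2x and 218, 491 and 668 in 4x esb1-1 (-0.51, adjusted p = 0.518). AOC1, at 36.7, 83.7 and 71.3 in 2x and 19.5, 38.4 and 30.5 in 4x esb1-1 and at 96.9, 134 and 115 in 2x and 68.7 and 58.8 in 4x chx25-3, had no overlap in chx25-3 and a narrow one in esb1-1, at -0.86 (adjusted p = 0.574) and -1.12 (adjusted p = 0.184). In chx25-3 every 4x library lay below every 2x library for 8.76% of all genes.

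**Figure D3:**
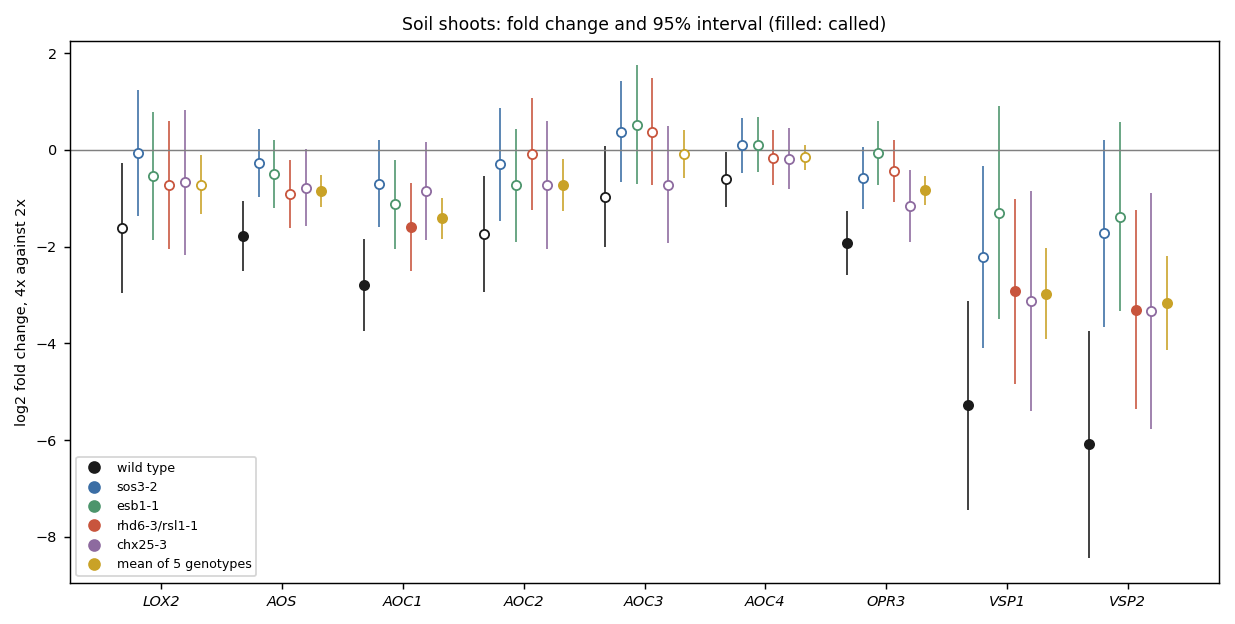
Log2 fold changes of 4x against 2x soil shoots from edgeR for each gene, with 95% intervals, in wild-type, the 4 mutants and their mean over 5 genotypes. Filled points were called, all below 0, and the wild-type point is the lowest of its gene for each gene.

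Wild-type had the lowest estimate for every gene, but the ploidy effects of mutants and wild-type were not shown to differ. The tests of the difference called 0 of 36 pairs of gene and mutant in soil shoots (edgeR, 13 at an unadjusted p under 0.05, DESeq2 1 and limma-voom 0), beside 0.00491% to 0.138% of all genes. All 36 estimates were above 0, but the 4 mutants share the same wild-type plants.

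In roots no member was called between ploidies. In soil roots edgeR called 0 of 45 pairs of gene and genotype (1 at an unadjusted p under 0.05, 0 called by DESeq2 and 0 by limma-voom), and in plate roots 0 of 45 (1 at an unadjusted p under 0.05, 0 called by DESeq2 and 0 by limma-voom), beside 0.0491%, 0.00983%, 0.00491%, 0.0197% and 0.0246% of all genes in wild-type, sos3-2, esb1-1, rhd6-3/rsl1-1 and chx25-3 soil roots and 0.0246%, 0%, 0.0541%, 0.00983% and 2.83% in the same order in plate roots. In the mean over genotypes 0 of 9 were called in either (soil roots 1 at an unadjusted p under 0.05, 0 called by DESeq2 and 0 by limma-voom, plate roots 0 at an unadjusted p under 0.05, 0 called by DESeq2 and 0 by limma-voom, beside 0.816% and 0.172% of all genes). Wild-type VSP2 stood at 38.5, 122 and 120.0 in 2x and 14.6, 44.4 and 48.3 in 4x soil roots, 2x replicate 1 lying among the 4x plants (log2 fold change -1.39, 95% interval -3.31 to 0.54, adjusted p = 1), and at 157, 158 and 178 and 178, 202 and 162 in plate roots. In soil roots the mean change of VSP2 over genotypes was -0.32 (95% interval -1.19 to 0.55). In plate roots the interval of the mean change was -0.64 to 1.13 for VSP2 and -0.84 to 0.80 for VSP1. For AOS these intervals were -0.28 to 0.37 in soil roots and -0.11 to 0.56 in plate roots, against an estimate of -0.85 in soil shoots, while the difference between organs was not tested.

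Among diploids, esb1-1 shoots had less OPR3, VSP1 and VSP2 transcript than wild-type shoots, while the call of AOC3 was lost without 1 wild-type plant. OPR3 stood at 17.4, 50.7 and 30.9 in esb1-1 against 327, 67.9 and 118 in wild-type (log2 fold change -2.36 ± 0.34 (SE), adjusted p = 1.33e-05), without overlap. VSP1 (log2 fold change -4.55 ± 1.06 (SE), adjusted p = 0.01), VSP2 (log2 fold change -3.86 ± 1.08 (SE), adjusted p = 0.0419) and AOC3 (log2 fold change -2.77 ± 0.60 (SE), adjusted p = 0.00418) were also called lower, 4 of 9 members beside 1.79% of all genes (0.344% higher and 1.45% lower). AOC3 stood at 2.95, 7.52 and 1.56 in esb1-1 and at 73.9, 7.78 and 6.08 in wild-type, with overlap. Without wild-type 2x replicate 1, AOC3 was no longer called (-0.70, adjusted p = 0.543) and OPR3 stood at -1.49 (adjusted p = 0.00316), and 3 members were called. All 9 estimates were below 0. The count fell to 2 without esb1-1 2x replicate 1, to 2 without replicate 2 and to 0 with soil shoots alone. The wild-type plants are those of the ploidy comparison, so that high wild-type 2x values enter both. The running numbers in the library names were 41, 53 and 70 in 2x esb1-1 and 51, 82 and 98 in 2x wild-type. With that number in the model VSP1 stood at -2.71 (adjusted p = 0.00278) and VSP2 at -2.21 (adjusted p = 0.00549), and with the soil shoot libraries alone as well VSP1 stood at -2.72 (adjusted p = 0.158) and VSP2 at -2.22 (adjusted p = 0.204), no longer called.

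No other mutant had a member called against wild-type in 2x soil shoots, beside 0.0737%, 0.0836% and 0.0295% of all genes in sos3-2, rhd6-3/rsl1-1 and chx25-3. In 4x soil shoots edgeR called 0 of 36 pairs (9 at an unadjusted p under 0.05, DESeq2 0, limma-voom 0), beside 0.0836%, 0.59%, 0.663% and 0.0491% of all genes in sos3-2, esb1-1, rhd6-3/rsl1-1 and chx25-3. In roots it called 0 of 36 in each of the 4 combinations of ploidy and growth system, beside, in the same order of mutants, 0.059%, 0.349%, 0.619% and 0.0147% of all genes in 2x soil roots, 0.0246%, 0.3%, 0.516% and 0.0246% in 4x soil roots, 0.0836%, 2.57%, 2.56% and 3.62% in 2x plate roots and 0.0295%, 0.206%, 2.62% and 0.0639% in 4x plate roots. At an unadjusted p under 0.05 there were 0, 1, 1 and 2, in soil roots 2x and 4x and plate roots 2x and 4x, and DESeq2 and limma-voom called 0.

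The members moved with another quantity in shoots, the running number in the name of each deposited table. The labels do not say what it records. Its slope was examined after the data had been seen, in a fit with a mean per group. VSP2 rose by 0.79 ± 0.06 (SE), adjusted p = 3.91e-16 in log2 per 10 numbers and VSP1 by 0.79 ± 0.07 (SE), adjusted p = 1.51e-14. AOC2 (0.42 ± 0.04 (SE), adjusted p = 2.04e-13), LOX2 (0.32 ± 0.06 (SE), adjusted p = 1.22e-05), AOS (0.23 ± 0.03 (SE), adjusted p = 2.71e-09) and AOC4 (0.19 ± 0.02 (SE), adjusted p = 8.56e-11) rose as well, and AOC3 fell (-0.30 ± 0.05 (SE), adjusted p = 1.89e-06). These are 7 of 9 members passing, beside 39.8% of all genes with an adjusted slope p under 0.05, AOC1 and OPR3 being the others (0.08 ± 0.05 (SE), adjusted p = 0.173, and -0.04 ± 0.04 (SE), adjusted p = 0.381). In soil roots AOC2, at 1 to 19 counts per library, and VSP2 passed (0.29 ± 0.05 (SE), adjusted p = 1.02e-04 for VSP2), beside 4.48% of genes.

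Wild-type shoots carried the numbers 51, 82 and 98 in 2x and 33, 60 and 94 in 4x, so that each 4x plant had a lower number than the 2x plant of its replicate. In rhd6-3/rsl1-1 the order was reversed, 37, 72 and 100 in 2x and 92, 106 and 130 in 4x. With the number in the model the ploidy change of VSP2 was -5.03 in wild-type (adjusted p = 4.98e-08) and -4.49 in rhd6-3/rsl1-1 (adjusted p = 6.86e-08). The counts of members called became 6 in wild-type, 7 in rhd6-3/rsl1-1 (AOC3 higher, the rest lower), 4 in esb1-1, 2 in sos3-2, 1 in chx25-3 and 7 in the mean over genotypes. With the number and the soil shoot libraries alone, a fit chosen after seeing the data, they were 6, 6, 0, 0, 0 and 7.

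**Figure D4:**
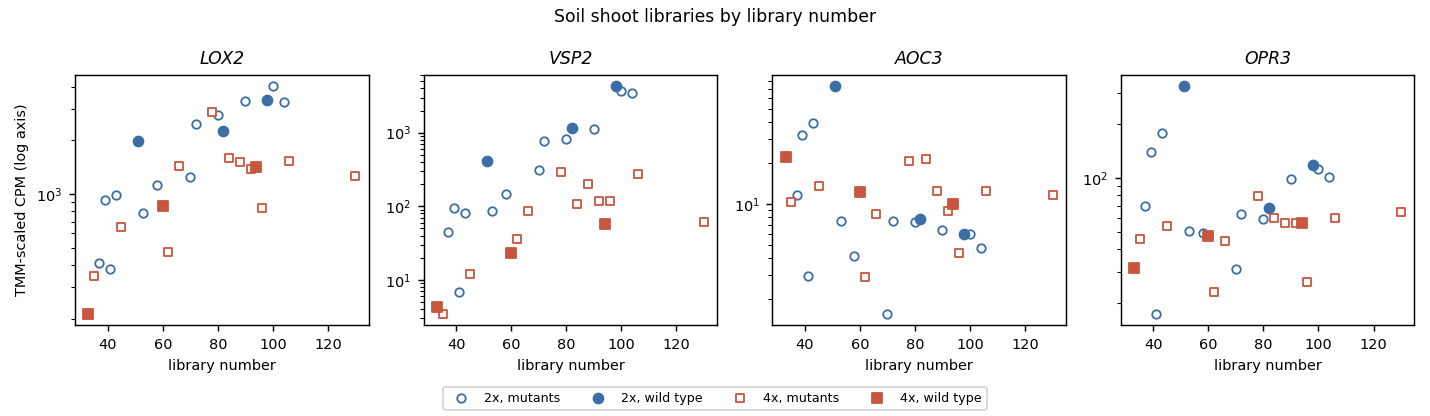
TMM-scaled CPM (log axis) of LOX2, VSP2, AOC3 and OPR3 in the 29 soil shoot libraries against the library number, circles for 2x, squares for 4x, filled for wild-type. LOX2 and VSP2 are low at small numbers in both ploidies, and 3 libraries at 39, 43 and 51 hold the highest AOC3 and OPR3 values.

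AOC3 and OPR3 stood out in 3 diploid shoot libraries, replicate 1 of sos3-2 (number 39), of chx25-3 (43) and of wild-type (51). AOC3 was 32.3, 39.6 and 73.9 CPM there and at most 22.1 in the other 26, and OPR3 was 139, 178 and 327 against at most 118. Picked after their values were seen, 5 of the 11 JAZ genes tested (JAZ1, JAZ2, JAZ5, JAZ7 and JAZ10) and the jasmonate oxidase gene CYP94C1 also had their 3 highest values in these libraries, and JAZ3, JAZ4, JAZ6, JAZ9, JAZ11, JAZ12 and CYP94B3 did not, while the VSP2 values there (81 to 412) lay inside the range of the others. Leaving the 3 out together, an alternative added after seeing them, kept the wild-type call of OPR3 at -1.05 (adjusted p = 0.0108), turned the wild-type AOC3 estimate above 0 (adjusted p = 0.051) and its mean over genotypes to 0.91 (adjusted p = 2.45e-05), and put the mean change of OPR3 at -0.49, under the fold required.

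The rest of the pathway was read from 6 lists, chosen, as the members were, with earlier results of these data known. The shares of all genes beside their counts are therefore description only. In wild-type shoots the genes that conjugate, oxidise or otherwise turn over jasmonate had the lowest median log2 fold change, -2.09, and 5 of 8 were called lower in 4x, beside 2.68% of all genes. ILL6, an amidohydrolase that cleaves jasmonoyl-isoleucine, stood at 116, 27.7 and 30.8 CPM in 2x and 4.11, 8.07 and 10.4 in 4x (-2.93 ± 0.46, adjusted p = 1.36e-05). ST2A, a hydroxyjasmonate sulfotransferase, stood at 104, 94.3 and 78.1 CPM in 2x and 1.08, 24.9 and 14.3 in 4x (-2.81 ± 0.82, adjusted p = 0.0236). CYP94B1 and CYP94B3, which oxidise the conjugate, were also called, but their reads came mostly from 1 plant: CYP94B3 stood at 74.6, 0.934 and 4.75 CPM in 2x and 0, 1.29 and 0.921 in 4x, and CYP94B1 was at or under 3 counts in each wild-type library but 2x replicate 1. IAR3 of the same list (143, 20.2 and 14.8 CPM in 2x, 24.4, 26.8 and 17.2 in 4x) stood high in that plant alone. So did CYP94C1 (10.4, 0 and 0.57 CPM in 2x, 1.51, 1.61 and 1.69 in 4x).

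Of the JAZ repressors 6 of 11 were called lower in wild-type (median -1.35) and 6 of 11 in the mean over genotypes (-1.01), beside 2.68% and 6.33% of all genes. JAZ9 stood at 660.0, 229 and 284 CPM in 2x and 137, 95.6 and 88.5 in 4x (-1.87 ± 0.44, adjusted p = 0.00441 in wild-type and -1.26 ± 0.20, adjusted p = 2.01e-06 in the mean), and JAZ10 at 62, 3.74 and 1.9 CPM in 2x and 2.16, 5.17 and 0.767 in 4x (-3.19 ± 0.87, adjusted p = 0.0142), its high value being 1 plant. JAZ2 (161, 43.9 and 46.2 CPM in 2x, 21, 37.5 and 39.4 in 4x) also stood high in 2x replicate 1 alone. So did JAZ5 (72.7, 4.67 and 8.55 CPM in 2x, 16.9, 4.52 and 3.84 in 4x). JAZ1, JAZ2, JAZ5, JAZ7 and JAZ10 had their 3 highest shoot values in the diploid libraries 39, 43 and 51. The lists were not fitted without these libraries. Among receptor components and MYC factors 2 of 10 were called lower, the activator MYC2 and its antagonist JAM1, with a list median of 0.05. MYC2 stood at 417, 109 and 203 CPM in 2x and 167, 63 and 68.7 in 4x, with overlap (-1.29 ± 0.36, adjusted p = 0.0182). JAM1 stood at 61.1, 17.1 and 16.3 CPM in 2x and 18, 13.9 and 7.21 in 4x, also with overlap, its high value being 2x replicate 1 (-1.28 ± 0.40, adjusted p = 0.0405).

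Of the outputs of the MYC branch, 5 of 9 were called lower in wild-type, beside 2.68% of all genes. CORI3, a cystine lyase gene, stood at 927, 932 and 1389.7 CPM in 2x and 26, 159 and 216 in 4x (-3.02 ± 0.69, adjusted p = 0.00266), and NATA1, which acetylates ornithine, at 345, 144 and 219 CPM in 2x and 9.09, 21.3 and 35.4 in 4x (-3.42 ± 0.74, adjusted p = 0.00132). In the mean over genotypes 4 were lower and 1 was higher, TAT3, a tyrosine aminotransferase gene (1.31 ± 0.34, adjusted p = 0.00237). Of all genes, 6.33% were lower and 7.71% higher in that mean. Of the ethylene-linked ERF branch, PDF1.2a and PDF1.2c, defensin genes with near-identical sequences, were called lower in wild-type, where 2x replicate 2 alone stood high (PDF1.2a at 97.6, 1643 and 165 CPM in 2x and 146, 94.6 and 31.6 in 4x). HEL, a chitin-binding PR4 protein gene of the same list, was higher in the mean (0.92 ± 0.17, adjusted p = 2.62e-05).

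Other synthesis genes moved less: 0 of 13 were called in wild-type (edgeR, list median -0.30), and in the mean over genotypes 2 were lower, the plastid desaturase gene FAD8 (-0.84 ± 0.20, adjusted p = 0.00111) and OPR2 (-0.56 ± 0.14, adjusted p = 0.00246), an oxophytodienoate reductase gene related to OPR3. Of all genes, 6.74% were called in wild-type, and 6.33% were called lower in the mean. FAD8 and OPR2 were also called lower in esb1-1 shoots, where no member was and 2.88% of all genes were called in either direction. Over all genes the median was -0.05 in wild-type and -0.04 in the mean. In roots none of the tested genes of the 6 lists was called in the mean over genotypes, in soil or on plates, beside 0.816% and 0.172% of all genes.

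**Figure D5:**
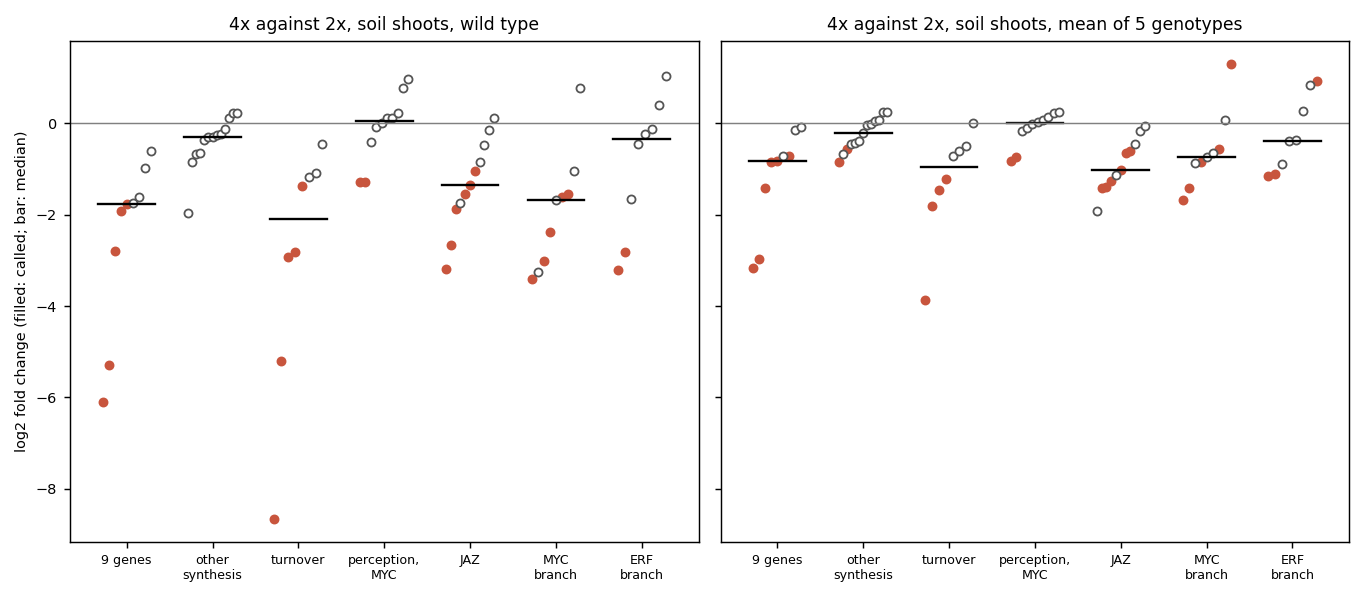
Log2 fold changes of 4x against 2x soil shoots (edgeR) for the 9 genes and 6 lists of other jasmonate genes, in wild-type and as the mean over 5 genotypes, filled where called, with bars at list medians. The medians of the 9 genes, the turnover genes, the JAZ genes and the MYC branch lie below those of the other 3 lists in both panels.

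Across the 29 soil shoot libraries, which share the ploidy and number patterns above, the members varied together. Pearson's r of log2(CPM + 1) was 0.97 for VSP1 and VSP2, 0.94 for LOX2 and AOC2, 0.93 for LOX2 and AOS and 0.93 for AOS and VSP2. AOC3 stood apart, with r from -0.28 to 0.10 to every member but OPR3 (0.65). The non-member genes most like LOX2 were AT4G18440 (r = 0.95), AT1G14250, DHAR1, AT2G43530 and GGH1 (0.91). Those most like VSP2 were the dehydroascorbate reductase gene DHAR1 (0.96), AT4G18440, the beta-amylase gene BAM5, CORI3 and AT1G62660 (0.92), so that DHAR1 and AT4G18440 were near both.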

How the data were processed

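Root and shoot RNA was sequenced from the 3′ end (QuantSeq, 75-base single reads), and per the paper's methods the authors quantified reads with Salmon on Galaxy Europe and passed them through tximport as scaledTPM. The estimated counts, as deposited by the authors, are Salmon's read numbers per transcript, not normalised, and TPM was deposited per transcript and per gene. The transcript set, build and Salmon version are not given in the sources used here. The deposited TPM values divide 3′ reads by transcript length. Estimated counts were summed per gene and rounded to whole numbers, and up to 47.2% of the non-zero transcript counts of a library were not whole (tolerance 0.001).

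The 20347 of 33681 genes that reached 2 CPM in 6 or more libraries were tested, libraries were scaled by TMM, and all 86 grouped libraries were fitted together with a mean per group in edgeR 4.0.16 (R 4.3.3, quasi-likelihood test, Benjamini-Hochberg adjustment over all 20347 genes). Calls required an adjusted p below 0.05 together with a log2 fold change of 0.5 or more in size. Intervals are the estimate ± 1.96 SE. Printed CPM values are TMM-scaled, and correlations used log2(CPM + 1). DESeq2 1.42.0, limma-voom (limma 3.58.1), other scalings, filters, sample subsets, a replicate block and leaving out each library were tried as alternatives. The code was tested on simulated counts.

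Depth ran from 3292996 to 10246421 assigned reads per library, and counting error only is covered by a count. The floor for detection was 3 counts. Gene lists named 93 AGI codes, of which 7 were dropped because the RefSeq name did not match, and 86 were used. The members and lists were chosen with earlier results of these data known. From each list, up to 4 called genes with the largest absolute log2 fold change in the mean over genotypes or in wild-type shoots could be named, and any other was picked after its values were seen. Replicate numbers were taken as pairing 2x and 4x plants where every same-numbered pair's deviations from the group means correlated over 0.1. This held in wild-type shoots (r = 0.428, 0.27 and 0.446), esb1-1 shoots (0.427, 0.231 and 0.462) and esb1-1 soil roots (0.341, 0.176 and 0.207), and in no other of the 11 comparisons with 3 such pairs. The pairing comes from the replicate numbers in the labels. Of the 88 libraries, 2 whose title and genotype label disagree were left out of every comparison.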

Additional observations from a re-analysis of the deposited data

How the results depend on the processing

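Of 259 recomputed counts of called members over 21 comparisons, 32 moved by over 1.5 times, most of them in soil shoots. In the comparisons with soil shoots no called member changed sign, but AOC3, not called, did without libraries 39, 43 and 51 (mean over genotypes -0.09, then 0.91 at an adjusted p of 2.45e-05). Libraries 39, 43 and 51, the library number, and the fits of soil shoots alone with the number or a block were added after seeing the data. In wild-type shoots the 5 calls became 1 with the soil shoot libraries alone, 0 with the compared groups alone and 8 with the replicate block. In rhd6-3/rsl1-1 the 3 calls became 1 with limma-voom on counts or on scaledTPM, 0 with soil shoots or the compared groups alone, 7 with the library number, 6 with soil shoots alone and the number, and, by the replicate block, 1 with all libraries and 0 with soil shoots alone. With the library number, sos3-2 gave 2 calls, esb1-1 4 and chx25-3 1, and without the libraries numbered 39, 43 and 51 sos3-2 gave 1, AOC3 higher. With the replicate block chx25-3 gave 2. In plate roots, over the genotypes, 1 pair of gene and genotype was called with the compared groups alone and 1 with the replicate block. The 4 calls of 2x mutants against wild-type in soil shoots became 2 with limma-voom on scaledTPM, 0 with soil shoots or compared groups alone, 1 with soil shoots alone and the number, and 9 with the replicate block. Of 4x mutants 0 became 4 with the replicate block, 2 with the block and soil shoots alone, and 1 without the libraries numbered 39, 43 and 51. Plate root mutants gave 1 in 2x with plate roots alone, with compared groups alone and with the replicate block, and 1 in 4x with plate roots alone. The differences of ploidy effects in soil shoots gave 1 by DESeq2 and 8 with the replicate block. The block changed no other count by over 1.5 times, and outside the comparisons in which the numbers pair plants they are only shared numbers. In rhd6-3/rsl1-1 shoots and in wild-type and sos3-2 soil roots every plant correlated best with its own number. The cause of these changes was not tested.

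Leaving out 1 library at a time gave 5 to 7 calls in wild-type shoots, 0 to 4 in rhd6-3/rsl1-1, 5 to 7 in the mean over genotypes, 2 to 4 for 2x mutants, 0 to 2 for 4x mutants and 0 to 1 for the differences of ploidy effects in shoots. It left 9 for shoots against soil roots, 6 for soil against plate roots and 0 for every other comparison. Of 196 recomputed fold changes of called members 168 kept their call. Members at a few counts, such as VSP1 in 4x wild-type shoots and LOX2 and AOC1 in roots, have fold changes limited by depth, and groups of 3 plants leave shoot intervals of several log2 units.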

Other observations

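The 2 libraries whose title and genotype label disagree, a soil shoot and a soil root, entered no comparison. In the shoot library LOX2 stood at 309 TMM-scaled CPM, AOS at 149, AOC2 at 36.8, AOC3 at 18.5, AOC4 at 31, OPR3 at 31, VSP1 at 2.81 and VSP2 at 16.1. AOS, AOC1 and AOC2 were each below all 29 grouped shoot libraries, the lowest grouped AOS value being 159. This library had the number 31, where the lowest number of a grouped shoot library was 33. Values of the 2 libraries come from a scaling over all libraries, apart from that of the grouped ones. In the root library LOX2 and AOC1 were at 0, AOC3 stood at 68, AOC4 at 113, AOS at 44.5, OPR3 at 11.6, AOC2 at 0.201, VSP1 at 8.66 and VSP2 at 26. OPR3 was just under the lowest grouped soil root library, and the others lay inside the range of the set.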
